A study of Mus musculus with 2 samples.

Results

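Integrins, laminins and the other core proteins of the basement membrane were examined in vaginal tissue from WT and Fbln5-/- mice. Members were the probe sets annotated to exactly 1 gene for an integrin α or β chain, a laminin α, β or γ chain, or one of Nid1, Nid2, Hspg2, Dag1 and Agrn. Collagens were not included. The rule found 85 probe sets of 39 genes, among 34958 probe sets of 18194 genes that carried a single gene name. These were 16 integrin α chains, 8 integrin β chains, 10 laminin chains and 5 other genes. Itga11 and Itgad were not analysed here.

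Vaginal RNA of female C57/Bl6 mice was hybridised to Affymetrix mouse expression arrays, 1 for each genotype. All animals had been ovariectomized and then received estradiol at 50 µg/kg/d for 3 d, so both genotypes share the loss of the ovaries and the hormone, and no untreated tissue was measured. The animals were 6 months old according to the sample labels, which give 11 d for the ovariectomy, while the series design gives 2 weeks and the methods start estradiol 2 weeks after it. The methods give 2 animals in each group, and whether their RNA was pooled is not stated. With 1 array per genotype there is no spread between animals, so every ratio below is a description of 2 arrays, without a test, an error or a p-value.

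Basement membranes are thin sheets of matrix under epithelia and around vessels, muscle fibres, fat cells and nerves. Laminin trimers and collagen IV form networks in them, nidogens and perlecan (Hspg2) tie the networks together, and integrins and dystroglycan (Dag1) on the cell surface hold on to the laminin. Fibulin-5, the product of the deleted gene, is a matrix protein with an RGD motif, and integrins αvβ3, αvβ5 and α9β1 are known to bind it.

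Signals are MAS5 intensities scaled to a common array median, in arbitrary units. A gene counted as measured when a probe set reached 100 on at least 1 array, and it was represented by its brightest probe set. Of the 39 genes, 34 were measured, 30 of them with 100 or more on both arrays at that probe set. The 5 others were Itga2, Itga10, Itgae, Itgb6 and Lama1, whose signals were all under 100. Among them Itga2, a collagen receptor chain of epithelium, had 46.3 for WT and 40.3 for Fbln5-/-, and Lama1, a laminin chain of early embryos, had 3.79 and 26.2. No fold is given for these 5. Of the 85 probe sets, 54 passed the limit and 31 did not. The tissue carried the markers of vaginal wall on both arrays, with Krt13, a keratin of stratified mucosa, at 19999 for WT and 21197 for Fbln5-/-. Fbln5 itself had signals of 410.4 and 30.4, at least 4.10-fold lower when the second value is taken as 100. Whether this probe set lies in the deleted part is not known. The arrays carry control probe sets at both ends of Gapdh, and a low 5′ signal beside a kept 3′ signal is a sign of shortened RNA or labelled copies. The 5′ control was 21.7-fold lower on the Fbln5-/- array (17262 and 794.7), while the 3′ control had 13329 and 13829. The control in the middle of Gapdh was 2.23-fold lower. Those of β-actin were 3.66-fold lower at the 5′ end, 2.33-fold in the middle and 1.13-fold at the 3′ end. The part of these differences in the lower ratios below was not tested.

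Most of the genes differed by less than 2-fold between the arrays. On the Fbln5-/- array 3 integrin α chain genes, Itga8, Itga9 and Itga4, were higher by 2-fold or more, or 8.82% of the 34 measured, against 7.21% of all 11934 genes measured. The 2 at least 2-fold lower were Lamb3 and Itgam, or 5.88%, against 4.77% of all genes. The shares thus lay near those of all genes. The median log2 ratio of Fbln5-/- over WT was 0.13 over the 34 genes and 0.16 over all genes. Of the 34, 17 lay above the median of all genes. Setting the median ratio of bright probe sets to 1 lowered the median of all genes by 0.11, left 2 genes higher and 2 lower, and put Itga4 at a log2 ratio of 0.99.

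**Figure D1:**
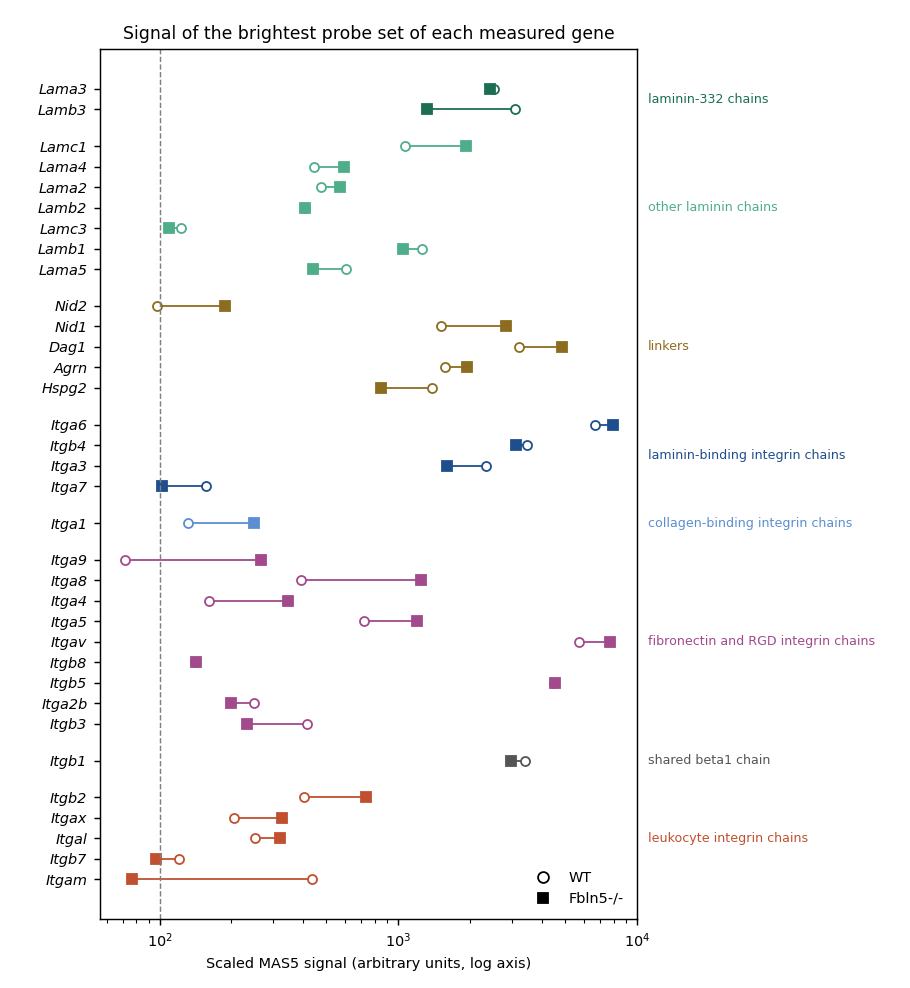
Scaled signal (log axis, arbitrary units) of the brightest probe set of each of the 34 measured genes on the WT array (open circles) and the Fbln5-/- array (filled squares), 1 array each, grouped by role, with a dashed line at 100. Itga8, Itga9 and Itga4 are higher on the Fbln5-/- array, Lamb3 and Itgam are lower, and the other genes lie within 2-fold.

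The sequences in front of the 5 genes that differed by at least 2-fold are shown so that their regulatory context can be read beside the ratios. Each is the 250 bases before a RefSeq transcription start, in GRCm38.p6, 5′ to 3′ on the strand of the gene. Capitals mark matches to 6 motifs searched on either strand. The PU.1 box, bound by a factor of myeloid cells, was read as GAGGAA. The AP-1 site, bound by factors of the Fos and Jun families, was read as TGA and TCA with 1 base between them. The GC box, bound by Sp1 and its relatives, was read as GGGCGG. The TATA box, near which transcription of some genes begins, was read as TATAAA. The estrogen response element, a palindrome bound by the estrogen receptor, was read as GGTCA followed after 3 bases by TGACC. The CArG box, bound by serum response factor, was searched as well.
Itga8, chr2:12301945-12302194, minus strand: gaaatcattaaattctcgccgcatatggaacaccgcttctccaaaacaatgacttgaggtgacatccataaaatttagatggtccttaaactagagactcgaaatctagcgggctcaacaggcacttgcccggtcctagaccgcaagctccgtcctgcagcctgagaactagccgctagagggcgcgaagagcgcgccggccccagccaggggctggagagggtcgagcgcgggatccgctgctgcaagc
Itga9, chr9:118711442-118711691, plus strand: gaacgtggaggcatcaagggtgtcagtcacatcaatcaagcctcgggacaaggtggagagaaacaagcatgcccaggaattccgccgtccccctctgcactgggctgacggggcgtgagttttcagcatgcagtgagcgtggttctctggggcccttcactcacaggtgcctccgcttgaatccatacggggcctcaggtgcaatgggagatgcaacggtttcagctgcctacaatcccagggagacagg
Itga4, chr2:79255176-79255425, plus strand: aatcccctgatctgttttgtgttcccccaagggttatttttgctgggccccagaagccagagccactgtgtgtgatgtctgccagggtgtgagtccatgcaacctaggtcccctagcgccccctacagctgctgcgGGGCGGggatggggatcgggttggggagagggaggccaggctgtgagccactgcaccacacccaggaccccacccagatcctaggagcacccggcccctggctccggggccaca
Lamb3, chr1:193301744-193301993, plus strand, first of 2 listed starts: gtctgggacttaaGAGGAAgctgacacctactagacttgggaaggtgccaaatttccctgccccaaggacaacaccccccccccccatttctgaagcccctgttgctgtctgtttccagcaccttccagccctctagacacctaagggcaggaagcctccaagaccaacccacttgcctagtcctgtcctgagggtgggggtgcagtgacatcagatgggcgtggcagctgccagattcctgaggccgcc
Itgam, chr7:128062390-128062639, plus strand: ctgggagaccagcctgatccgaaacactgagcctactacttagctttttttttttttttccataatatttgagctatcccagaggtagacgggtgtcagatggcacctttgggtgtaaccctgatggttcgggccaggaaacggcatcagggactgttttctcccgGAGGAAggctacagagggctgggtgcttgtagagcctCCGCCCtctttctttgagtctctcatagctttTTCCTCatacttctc
Itgam held 2 PU.1 boxes, at 84 and 15 bases before its start. Lamb3 held 1 such match and Itga4 held a GC box, as did Itgam. No match to these motifs was found in the Itga8 and Itga9 windows. Over 32851 RefSeq windows of the same length, 23.3% held the PU.1 letters, 32.7% the GC box, 12.4% the TATA box, 6.75% the AP-1 letters, 1.47% a CArG box and 0.0639% the estrogen response element. No 2 of the matches overlapped. A match of letters is not a site shown to be used.

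Laminin-332, whose α3 and β3 chains are encoded by Lama3 and Lamb3, is the laminin that anchors stratified epithelium. Its β3 chain gene Lamb3 had 3088 on the WT array and 1325 on the other, 2.33-fold lower, at its only probe set. The α3 chain gene Lama3 had 2524 and 2424, a log2 ratio of −0.06, so these chains did not differ by a like amount. The second Lama3 probe set was under 100 on both arrays. Markers of basal epithelium stood at 50421 and 56036 when the signals of 5 genes were summed, and none of the 5 differed by 2-fold. Among them were Krt5, a basal keratin, at 16102 and 16059, and Trp63, the transcription factor of basal cells, at 6103 and 7115. Of its 3 other probe sets past the limit, 2 were lower on the Fbln5-/- array, with 290.5 and 104.6 and with 285.6 and 12.9, and 1 was higher, with 83.8 and 129.5. The part of the 5′ control difference in the Lamb3 ratio was not tested.

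None of the 4 laminin-binding chains differed by 2-fold at its brightest probe set. Integrin α6β4 is the receptor of hemidesmosomes, the rivets between basal cells and laminin-332. Itga6 had 6696 for WT and 7912 for Fbln5-/- (log2 ratio 0.24) and 0.44 at its other probe set. Itgb4 had 3472 and 3110 at its only probe set, a log2 ratio of −0.16. Integrin α3β1 binds laminin-332 as well. Itga3 had 2327 and 1594 (log2 ratio −0.55), and its other probe sets had 997.0 and 506.5 (−0.98) and 428.3 and 4.42, the last at least 4.28-fold lower. All 3 Itga3 probe sets were thus lower on the Fbln5-/- array, by amounts that ranged widely. The last of them passed the limit on the WT array alone, so it could only come out lower. Itga7, a laminin receptor of muscle, had 157.1 and 102.2 at its only probe set.

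All 4 genes on the hemidesmosome list were measured, and none differed by 2-fold at its brightest probe set. Dst had a log2 ratio of 0.26, Cd151 0.25, Plec −0.18 and Col17a1 −0.11. These encode the linker dystonin, a tetraspanin partner of α6β4 and α3β1, the linker plectin, and a transmembrane collagen. A second Plec probe set was 3.08-fold lower, with signals of 4999 and 1621.

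The other laminin chains were spread on both sides of 0, with none of 7 differing by 2-fold and a median log2 ratio of 0.00. The highest was Lamc1, the γ1 chain shared by most laminins outside stratified epithelium, with 1071 for WT and 1927 for Fbln5-/- (1.80-fold higher). Lama4, a chain of vessel basement membrane, had 445.5 and 594.1 (log2 ratio 0.42), and Lama2, the chain of muscle and nerve, had 476.2 and 571.6 (0.26). Lama5, the widespread epithelial and endothelial chain, was the lowest, with 602.3 and 441.5 (−0.45) and −0.23 at its other probe set past the limit. Lamb2 was level, with 406.3 and 406.4, and took a log2 ratio of −0.11 when bright probe sets were centred. Lamb1 had 1258 and 1045 (−0.27) at its brightest probe set and 174.8 and 286.4 (0.71) at another, so its direction depends on the probe set. Lamc3 had 122.5 and 110.0, and its other probe set had 153.8 and 71.3, at least 1.54-fold lower.

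Among the genes that link the networks, 4 of 5 lay above the median of all genes and perlecan lay below it. Nid1 encodes nidogen-1, which joins laminin γ1 to collagen IV, and it had 1505 for WT and 2816 for Fbln5-/-, 1.87-fold higher. Its second probe set past the limit ran the other way, with 111.5 and 18.1, at least 1.12-fold lower. Nid2 had 97.7 and 187.9 at its only probe set, at least 1.88-fold higher, and since it passed the limit on the Fbln5-/- array alone it could only come out higher. Dag1, the laminin receptor that is tied to dystrophin, had 3214 and 4834 (log2 ratio 0.59). Of its other probe sets, 2 had log2 ratios of 0.48 and 0.50 and 1 had −0.08. Agrn, a heparan sulfate proteoglycan that binds laminin and dystroglycan, had 1574 and 1933 (0.30). Hspg2 had 1389 and 846.0 (−0.72) and 956.7 and 536.8 (−0.83), so both of its probe sets were lower by a similar amount.

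The collagens and netrins of basement membranes were described beside these genes, in a list that also held the receptor gene Bcam. Among the 12 measured, the measured ratio was 2-fold or more in 3 higher genes and 1 lower gene, beside 7.21% and 4.77% of all genes, with a median log2 ratio of 0.53. Bcam was the 1 lower gene, so leaving it out gave 3 of 11 higher and, by that choice, 0 lower. Col4a1 and Col4a2, the chains of the common collagen IV network, had 3661 and 6905 (1.89-fold higher) and 2539 and 5191 (2.04-fold higher). Ntn4, a netrin that binds laminin γ chains, had 243.3 and 569.0 (2.34-fold higher), and Col4a3, a chain of more specialised membranes, had 61.4 and 168.0, at least 1.68-fold higher. Col4a3 passed the limit on the Fbln5-/- array alone, so it could only come out higher. Bcam, a cell surface receptor for laminin α5, was the lower gene, with 2432 and 170.3 at its only probe set, 14.3-fold lower. In whole tissue, more cells of a type and more RNA per cell cannot be told apart. Endothelial markers summed to 3043 and 3603 over 7 genes with none differing by 2-fold, and adipocyte markers to 2084 and 6834 over 2 genes, both at least 2-fold higher. Their part in the higher signals was not tested.

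**Figure D2:**
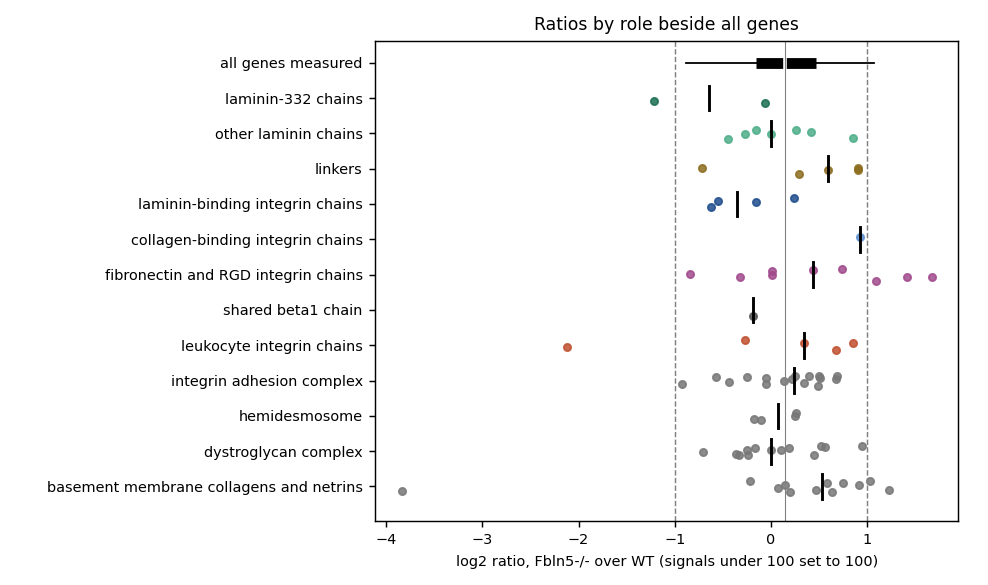
Each point is a measured gene, placed by its log2 ratio of Fbln5-/- over WT (signals under 100 set to 100) and grouped by role, with the pathway lists in grey, vertical bars at the medians, and dashed lines at 2-fold. The black box and line give the 25th to 75th and 5th to 95th percentiles of all 11934 genes. Among the members, the 3 genes at least 2-fold higher are fibronectin and RGD integrin chains. The basement membrane collagens and netrins, listed together with Bcam, have a median of 0.53 and hold 2 more such genes, Col4a2 and Ntn4.

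The integrin chains that bind fibronectin, RGD motifs or related ligands held all 3 of the members that were at least 2-fold higher. Among 9 measured, 3 were higher by 2-fold or more and none was lower by that much, beside 7.21% and 4.77% of all genes. Of the 3, Itga9 passed the limit on the Fbln5-/- array alone, so its direction was fixed by the filter. Itga4 fell below 2-fold when bright probe sets were centred (log2 ratio 0.99). The median log2 ratio was 0.44, beside 0.16 for all genes. Itga8, whose chain pairs with β1 in smooth muscle and mesenchyme and binds nephronectin, had 390.6 on the WT array and 1245 on the other, 3.19-fold higher. Its other probe set was barely within the limit, with 34.6 and 100.5. Smooth muscle markers summed to 35081 and 34419 over 7 genes, and none of them differed by 2-fold. Fibroblast markers summed to 60973 and 73720 over 6 genes, with all 6 above a log2 ratio of 0, a median of 0.33 and none differing by 2-fold. Their part in the Itga8 signal was not tested.

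Itga9 encodes the partner of β1 that binds tenascin-C and fibulin-5. It had 71.3 on the WT array and 266.3 on the other, higher by at least 2.66-fold. It passed the limit on the Fbln5-/- array alone, so it could only come out higher. A second probe set had 68.9 and 105.1, at least 1.05-fold higher, and the third was under 100 on both arrays. Itga4, the receptor for fibronectin and VCAM-1 on leukocytes and some mesenchymal cells, had 161.8 and 345.6, 2.14-fold higher. Its 4 other probe sets were under 100 on both arrays.

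The chains of the fibulin-5 receptors αvβ3 and αvβ5 did not share one direction. Itgav had 5708 for WT and 7735 for Fbln5-/- at its brightest probe set (log2 ratio 0.44) and 257.8 and 161.9 at another (−0.67). Itgb3, also the β chain of the platelet fibrinogen receptor, had 416.0 and 232.9 (−0.84). Itgb5 had 4510 and 4530 (0.01) at its brightest probe set, while 2 others had log2 ratios of 0.43 and 0.47 and another −0.74. The sign of the brightest Itgb5 probe set turned under each of the 4 other scalings tried. Itgb8, a chain of a TGF-β activating integrin, had 140.1 and 141.6, and its sign turned under 3 of the 4.

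The remaining chains of this group were Itga5 and Itga2b. Itga5, the fibronectin receptor chain, had 720.2 for WT and 1198 for Fbln5-/- (log2 ratio 0.73), but its other probe set past the limit had 138.1 and 28.2, at least 1.38-fold lower. Itga2b, the platelet partner of β3, had 249.2 and 199.7 (−0.32). Both chains of the platelet receptor were thus lower on the Fbln5-/- array, whereas the 3 platelet markers measured were higher. Pf4 had 667.8 and 936.1, Gp1bb 416.1 and 533.4, and Ppbp 2496 and 10028 (4.02-fold higher). Itgb1, the chain that most of the α chains here pair with, had 3385 and 2970 (−0.19), with −0.02 and −0.92 at its other probe sets past the limit. Among collagen-binding chains Itga1 alone was measured, with 131.5 and 249.0 (1.89-fold higher) at the brighter of its 2 probe sets.

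Inside the cell, integrins are tied to actin by talin, kindlins, vinculin and the complex of Ilk, parvin and Lims1. Of 16 such genes measured, none differed by 2-fold at its brightest probe set, and the median log2 ratio was 0.24. Vcl and Parva had log2 ratios of 0.68 each, and Lims1 and Ilk had −0.92 and −0.57, so partners within the Ilk complex lay on opposite sides of 0. Of 15 other probe sets of these genes past the limit, 4 were lower by 2-fold or more as measured, those of Lims1, Pxn, Src and Vcl, and 0 were higher by that much. Among other probe sets of all genes, 14.7% were lower and 4.86% higher by 2-fold or more. Those of Pxn and Vcl passed the limit on the WT array alone, so they could only come out lower. That of Pxn had 190.7 and 29.3, at least 1.91-fold lower. The second Vcl probe set had 258.4 and 62.7, at least 2.58-fold lower, against the direction of its brightest. Of 13 genes of the dystroglycan complex, Dtna was the 1 at least 2-fold lower, as measured from 128.4 to 51.1, and it was at least 1.28-fold lower against the limit. This probe set passed the limit on the WT array alone, so it could only come out lower. Another Dtna probe set, of higher mean signal, had 88.1 and 92.1, under the limit on both arrays. Dmd, which encodes dystrophin, had a log2 ratio of 0.95, its relative Utrn 0.57, the membrane protein gene Sspn 0.45, and Pomgnt1, an enzyme that glycosylates dystroglycan, −0.71. A second Dmd probe set was 2.31-fold higher, with 176.0 and 407.0. The second Utrn probe set had 151.5 and 68.1, at least 1.515-fold lower, against the direction of its brightest. It also passed the limit on the WT array alone.

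Leukocyte integrins pair Itgb2 with Itgal, Itgam or Itgax, and Itgb7 with Itga4 or Itgae. Itgam, the αM chain of neutrophils and macrophages, had 433.8 on the WT array and 76.4 on the other, lower by at least 4.34-fold, at its only probe set. It passed the limit on the WT array alone, so it could only come out lower. Its partner Itgb2 had 404.4 and 730.4 (1.81-fold higher), and the alternative α chains Itgax and Itgal had 204.2 and 325.6 (log2 ratio 0.67) and 251.9 and 320.3 (0.35). The β chain was thus higher on the Fbln5-/- array, as were 2 of its α chains, while the αM chain was lower. Itgb7 had 120.2 and 96.9, at least 1.20-fold lower. Itgae, its partner on T cells of epithelia, had 77.9 and 98.0 at the brighter of its probe sets, under the limit on both arrays.

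Leukocyte markers also ran both ways. General leukocyte markers summed to 5668 for WT and 5311 for Fbln5-/- over 6 genes, with Ptprc at 722.1 and 815.5. Coro1a had 1274 and 276.8 (4.60-fold lower) at its brightest probe set and 540.7 and 512.6 at another. Without Coro1a the brightest probe sets of the other 5 summed to 4394 and 5034. Other probe sets of Laptm5 had 1309 and 641.3, 206.8 and 91.0, and 54.8 and 115.0. That of Lcp1 had 585.6 and 285.5. The direction of the sum thus depends on the genes and probe sets used. Of 6 macrophage and dendritic cell markers measured, Itgam among them, 1 was at least 2-fold higher and 2 were at least 2-fold lower. Mrc1 was 2.68-fold higher, Csf1r had 2552 and 3771, and Cd209a was at least 3.65-fold lower. Neutrophil markers summed to 1771 and 5799 over 3 genes, with S100a8 and S100a9 at least 2-fold higher, although both are also made by epithelium. The part of cell number in the Itgam and Itgb2 signals was not tested.

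**Figure D3:**
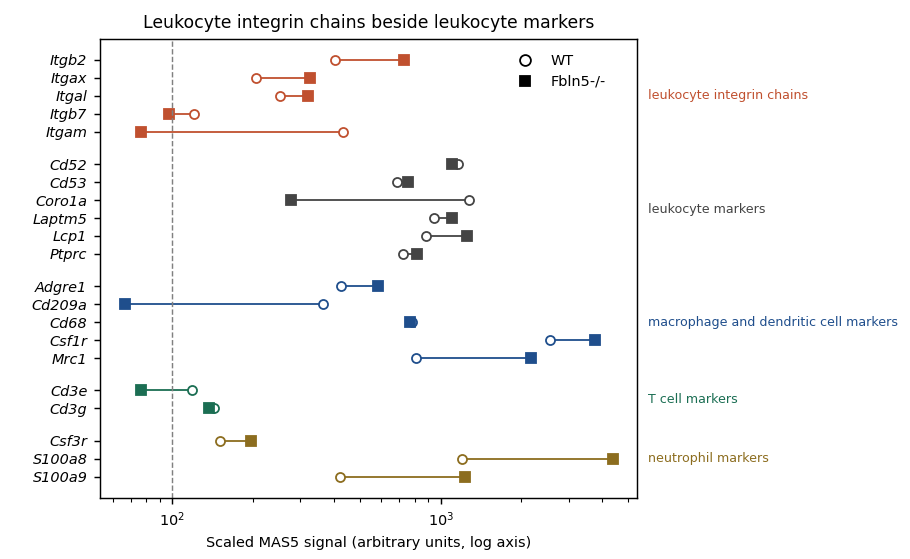
Scaled signal (log axis, arbitrary units) of the brightest probe set of each measured leukocyte integrin chain and of leukocyte markers, on the WT array (open circles) and the Fbln5-/- array (filled squares), 1 array each, with a dashed line at 100. Itgam lies at 433.8 and 76.4 and Itgb2 at 404.4 and 730.4, and Ptprc lies close together at 722.1 and 815.5.

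Probe sets of the same gene disagreed in several cases. Of the 34 genes, 14 had several probe sets past the limit, with 20 probe sets beside the brightest. The median log2 ratio of these 20 was −0.16, and that of the brightest probe sets of the same 14 genes was 0.12. Over all genes with several probe sets, the medians were −0.01 for 7693 other probe sets and 0.19 for 4893 brightest ones. Of the 20, 4 were at least 2-fold lower and 1 was at least 2-fold higher, or 20% and 5%, against 14.7% and 4.86% of other probe sets in all genes. The 4 were those of Itga3, Itga5, Lamc3 and Nid1, each under 100 on the Fbln5-/- array, and the 1 was that of Itga8, under 100 on the WT array. Each passed the limit on 1 array alone, so its direction was fixed by the filter. Read as bounds against 100, that of Itga3 alone stayed past 2-fold. Where both arrays reached 100, the probe sets of Itgb5 spanned 1.21 on the log2 scale, those of Itgav 1.11 and those of Lamb1 0.98, while those of Hspg2 spanned 0.12 and those of Itga6 0.20. Ratios that rest on 1 probe set, such as those of Lamb3 and Itgam, could not be compared in this way.

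**Figure D4:**
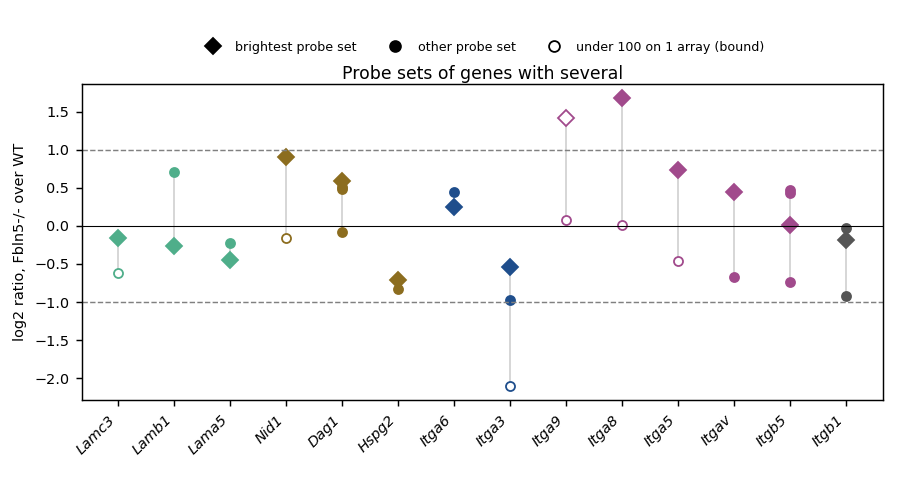
Each point is the log2 ratio of Fbln5-/- over WT for 1 probe set past the limit in the 14 genes that have several, with signals under 100 set to 100. Diamonds are the brightest probe set of a gene, circles the others, open symbols those under 100 on 1 array (a bound), and dashed lines mark 2-fold. Both probe sets of Hspg2 lie near −0.72 and −0.83, and those of Itgb5, Itgav and Lamb1 lie on both sides of 0.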

How the data were processed

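RNA of WT and Fbln5-/- vagina was hybridised to Affymetrix mouse expression arrays, 1 per genotype. The authors deposited MAS5 signal intensities on a linear scale for 45101 probe sets, per the labels (the version and a genome build are not given in the sources used here), with a trimmed mean of 500.0 on both arrays. Detection calls were not used here. Signals were scaled to a common median (factors 0.972 and 1.03), and the 1 zero, on the WT array, became 0.1. Probe sets under 100 on both arrays were left out. Genes were named from the platform annotation, in which 34958 probe sets had 1 gene, 932 several and 9211 were not listed, and 34754 identifiers matched the GRCm38.p6 gene table. No member changed its symbol on matching. For each gene the probe set of highest mean signal was used, and 2-fold differences were counted. Where 1 array was under 100, the fold is a bound against 100, and where both were, no fold is given. The number of arrays limits the precision, and no test was made. Named genes were all measured members and up to 4 genes per pathway list. The members and lists were chosen with earlier results of these data known. In the table of RefSeq promoters used here, 26 of the 39 genes had a window. Scaling, the signal limit, the choice of probe set and the 2-fold call were first tested on simulated data. Python 3.11.15, numpy 2.4.6, pandas 2.3.3 and matplotlib 3.10.9 were used.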

Additional observations from a re-analysis of the deposited data

How the results depend on the processing

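No paired analysis was possible because each genotype had 1 array, and for the same reason no array could be left out. The count of genes at least 2-fold lower, 2 as reported, was 1 with 100 required on both arrays (Itgam left the set) and 1 at a 3-fold threshold. It was 3 with the probe sets of a gene averaged, when Itga3 joined (log2 ratio −2.71), beside 7% of all genes. Without _x_at, _s_at and _a_at probe sets it stayed at 2, but Lamb3 left the set and Itga5 (−2.29) took its place. The count was 5 with the second brightest probe set of each gene, a choice made after seeing the data. Itga5, Lamc3 and Nid1 then joined Lamb3 and Itgam. That last choice raised the share of all genes at least 2-fold lower from 4.77% to 8.97%. The median log2 ratio of the members, 0.13 as reported, was 0.0225 with the median ratio of bright probe sets set to 1, 0.24 without a filter, 0.26 with at least 200 on 1 array, 0.0077 with the probe sets of a gene averaged, 0.26 without _x_at, _s_at and _a_at probe sets and 0.0077 with the second brightest probe set. The median of all genes, 0.16 as reported, was 0.0494, 0.15, 0.16, 0.0868, 0.16 and 0.0876 under these settings, in the same order. Centring moves every ratio by the same amount, and the other settings change the genes or probe sets used. Why those genes and probe sets differ was not tested. With bright probe sets centred, 49.3% of the genes that differed by 2-fold were higher, against 60.2% as reported. Itga4 fell below 2-fold with that centring (log2 ratio 0.99) and with 32 added to each signal (0.96). Itga9 ranged from 0.61 to 1.90 and was under 2-fold with its second brightest probe set. Averaging probe sets turned the sign of 4 of the 34 genes, Itga5 (−0.78), Itgav (−0.12), Lamb1 (0.22) and Nid1 (−0.86), and the second brightest probe set turned the same 4. Without _x_at, _s_at and _a_at probe sets, the signs of Itga5, Itgb5 (−0.74) and Lamb1 (0.71) turned. Itga8 ranged from 1.54 to 1.67, Lamb3 from −1.33 to −1.20 and Itgam from −2.61 to −2.10. The lowest Itga8 value came from its second probe set (34.6 and 100.5), whose WT signal was under the limit. Its direction was thus fixed by the filter, and its bound against 100 was only 1.005-fold. Lamb3 and Itgam have 1 probe set each, so averaging or taking the second brightest could not change their ratios. These narrow ranges therefore say little about agreement between probe sets. Signals under 100 limit what can be seen of Itga9, Nid2, Itgam and Itgb7.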

Other observations

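Known ligands of the integrin chains were described in a list chosen after the values of the receptors, and that of Tnc, were seen. Of 13 ligands listed, 11 were measured, and the log2 ratios of all 11 at their brightest probe sets lay above the median of all genes (0.16). Their median was 0.55, with 2 at least 2-fold higher and none at least 2-fold lower at that probe set, against 7.21% and 4.77% of all genes. Tnc, the tenascin-C ligand of α9β1, had 623.7 for WT and 3857 for Fbln5-/-, 6.18-fold higher, and Svep1, a large matrix protein that also binds α9β1, had 199.0 and 874.5, 4.40-fold higher. Npnt, which encodes the α8β1 ligand nephronectin, had 208.9 and 407.1 (log2 ratio 0.96), and a second probe set had 38.2 and 152.4, at least 1.52-fold higher. Fn1, the fibronectin gene, had 4258 and 7175 (0.75). The lowest was Emilin1, a microfibril protein bound by α4β1 and α9β1, with 383.1 and 444.9 (0.22). Thbs1, the gene of the αvβ3 ligand thrombospondin-1, had 1925 and 2892 (0.59) at its brightest probe set and 626.8 and 297.7 (−1.07) at another, so its direction depends on the probe set. The ligands Icam1 and Icam2 of leukocyte integrins had log2 ratios of 0.39 and 0.55. No test was made, since each value is from 1 array per genotype.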
